A study of Mus musculus with 22 samples.

Results

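Clone C1 is a GFP reporter line made from mpkCCD cells, and the comparison described here sets its GFP-positive cells against its GFP-negative cells after sorting. All 4 libraries that the sample labels assign to C1 were used, 2 per fraction, out of 22 libraries in the series. The mpkCCD line is an immortalised line from the mouse cortical collecting duct, here the secondary clone mpkCCDc11-38, grown on transwells (permeable supports). The other 18 libraries comprise 3 wild-type (WT) libraries without dDAVP, 3 WT libraries with dDAVP, and 2 GFP-negative and 2 GFP-positive libraries from each of the reporter clones C11, C43 and C50. All 16 clone libraries came from cells given dDAVP, the vasopressin analogue desmopressin that activates V2 receptors, so no untreated reporter cells enter the comparison. The labels list several doses and durations without tying them to libraries. All cells, WT included, were kept in medium with dexamethasone, selenite and transferrin. C1 is a single clone, and how its reporter was built and how the sort was gated are not given in the sources used here. Nothing in the labels says that the replicates were separate cultures, so the p-values below measure only the spread between these libraries, which may be technical.

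Principal cells of the collecting duct reabsorb water through aquaporin-2, the channel encoded by Aqp2. Vasopressin binds the V2 receptor on their basolateral side, raises cyclic AMP and activates protein kinase A, which moves aquaporin-2 to the apical membrane within minutes and increases Aqp2 transcription over hours. A fluorescent reporter lets cells of a clonal line be separated by their response to the same hormone.

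Expression was deposited as TPM (transcript abundance per length), which are scaled to a fixed total per library, so the sequencing depth behind each value is unknown. The C1 libraries held 12529 to 12695 genes at 1 TPM or more, 1.40 to 1.57% of TPM in mitochondrial genes and 4.30 to 4.78% in ribosomal protein genes. One library of another clone, C50 GFP-negative 1, had 8.32% of TPM in ribosomal protein genes against at most 6.12% in the other 21. Within a C1 fraction the replicates correlated at 0.976 (GFP-negative) and 0.981 (GFP-positive) across genes, and between fractions at 0.959 to 0.967, where genes are not independent replicates. Of 12 collecting duct markers, 10 reached 1 TPM in C1, among them the kidney cadherin Cdh16 (1387 to 1982 TPM) and Hoxb7 (117 to 134 TPM). The epithelial sodium channel subunit Scnn1b and the transcription factor Elf5 stayed under 1 TPM in all 4 libraries, and Aqp3 was at 1.31 to 4.13 TPM. The 8 fibroblast markers summed to 0.68 TPM or less. Among 8 immune markers only Cd68 and Csf1r reached 1 TPM, with Ptprc at 0.34 to 0.55 TPM and C1qa at 0. Of 8 endothelial markers only Egfl7 did so, at 68.3 to 111 TPM, with Cdh5 at 0. Of 8 proximal tubule markers only Lrp2 did so, at 0.94 and 1.55 TPM in GFP-negative and 3.60 and 3.38 TPM in GFP-positive libraries. Of 8 markers of the thick ascending limb and distal convoluted tubule only Trpm6 did so, at 1.00 to 1.63 TPM.

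GFP, which defined the fractions, stood at 11.6 and 13.3 TPM in the C1 GFP-negative libraries and at 1289 and 1294 TPM in the GFP-positive ones. That is a difference of 6.59 on the log2(TPM + 1) scale, given as a check of the sort. GFP lay at 0 to 0.79 TPM in the 6 WT libraries, so the C1 GFP-negative libraries were not without the transcript. From which cells it came was not tested. The same difference was 6.88 in C11, 6.01 in C43 and 7.43 in C50, with C1 inside their range.

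Aqp2 was at 72.6 and 66.5 TPM in the C1 GFP-negative libraries and at 2027 and 2008 TPM in the GFP-positive libraries. The fractions were far apart, and the mean was 29.0 times as high in GFP-positive cells. On the log2 scale Aqp2 rose by 4.84 (SE 0.09, adjusted p = 7.16e-11), tested with limma on log2(TPM + 1) with the spread shared over the 8 clone-and-fraction groups and Benjamini-Hochberg adjustment over all genes. With 2 libraries against 2, the two-sided exact permutation test allows no p below 0.333, and it gave that value. The GFP-negative cells of C1 had been given dDAVP, yet their Aqp2 level lay inside the range of 64.1 to 74.9 TPM of the 3 WT libraries that received none. In WT cells given dDAVP Aqp2 was at 2759 to 3025 TPM, above both C1 GFP-positive libraries.

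No other clone had a difference in Aqp2 as large as that of C1. The change was 3.59 in C11, 2.10 in C43 and 1.90 in C50. The difference of C1 from the mean of the other 3 was 2.31 (SE 0.10, adjusted p = 1.25e-06), and it lay between 2.00 and 2.84 under the 30 alternative settings tried. Both fractions of C1 lay below the corresponding libraries of the other clones. The 6 other GFP-negative libraries had 236 to 1679.8 TPM (median 1243) and the 6 other GFP-positive libraries 2896 to 7254 TPM (median 4651). On the log scale the distance from the other clones was wider in the GFP-negative fraction than in the GFP-positive fraction.

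**Figure D1:**
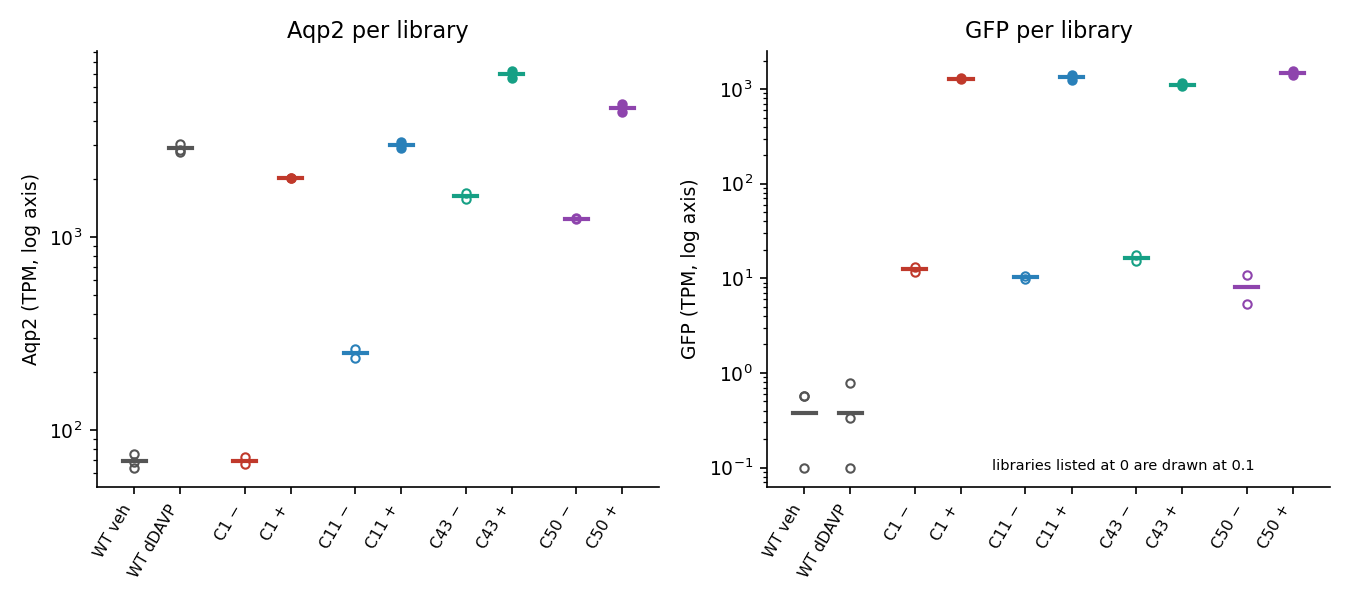
Aqp2 (left) and GFP (right) in TPM on log axes, 1 point per library, with open symbols for WT and GFP-negative libraries, filled symbols for GFP-positive ones, and short lines for group means. The C1 GFP-negative libraries (72.6 and 66.5 TPM of Aqp2) lie beside the untreated WT libraries and below every other clone library, while GFP separates the fractions of all 4 clones.

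The 250 bases before the annotated start of Aqp2 are shown because this promoter is known for a cyclic AMP response element, the sequence through which CREB-family factors act. The windows of Fxyd4 and Spp1 are set beside it, since among the largest rises and falls in C1 these were the first with an entry in the RefSeq promoter table (build GRCm38.p6). Capitals mark each match to the half-site TGACG or its reverse complement CGTCA, searched on both strands. The sequences read 5′ to 3′ on the strand of the gene, from chr15:99578806-99579055, plus strand for Aqp2, from chr6:117937336-117937585, minus strand for Fxyd4 and from chr5:104434861-104435110, plus strand for Spp1, the first of its 2 listed starts.
Aqp2: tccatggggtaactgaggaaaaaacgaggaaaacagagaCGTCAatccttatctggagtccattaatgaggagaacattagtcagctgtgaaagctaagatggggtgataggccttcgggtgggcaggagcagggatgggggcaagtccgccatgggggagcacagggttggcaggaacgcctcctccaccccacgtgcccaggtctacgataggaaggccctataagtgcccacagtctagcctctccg
Fxyd4: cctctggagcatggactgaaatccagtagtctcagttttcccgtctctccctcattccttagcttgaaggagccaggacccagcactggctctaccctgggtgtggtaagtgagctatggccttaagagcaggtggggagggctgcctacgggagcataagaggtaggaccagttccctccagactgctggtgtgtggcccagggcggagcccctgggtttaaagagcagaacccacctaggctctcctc
Spp1: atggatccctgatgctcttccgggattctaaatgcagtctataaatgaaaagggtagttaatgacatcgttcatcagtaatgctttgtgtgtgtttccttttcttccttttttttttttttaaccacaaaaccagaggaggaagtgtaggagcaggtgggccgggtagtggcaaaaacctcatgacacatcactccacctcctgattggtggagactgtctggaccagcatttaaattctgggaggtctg
The Aqp2 window held 1 match and the other windows held 0. Among all listed promoters, 17.8% (5836 of 32851) held the half-site. Counting a gene when any of its listed starts did, matches occurred in 31.6% of the tested genes with an entry (2958 of 9354), 27.0% of those higher in C1 GFP-positive cells (62 of 230) and 27.3% of those lower (140 of 513). These are matches of 5 letters and say nothing of binding.

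Beyond Aqp2, 947 of 13113 genes tested (7.22%) differed between the C1 fractions at an adjusted p under 0.05, 303 higher (2.31%) and 644 lower (4.91%) in GFP-positive cells. In all 947 the fractions did not overlap, which was so for 54.8% of all genes tested. A log2 difference of at least 1 was reached by 92 of the higher and 281 of the lower genes. The split between higher and lower moved with the scaling, with 470 higher and 519 lower after median-ratio scaling and 525 and 599 after quantile normalization. The number of calls also moved with the libraries in the fit, from 376 without the GFP-positive replicate 1 of C1 to 2093 without the GFP-negative replicate 2 of C50. Over all tested genes the median absolute difference was 0.23 in C1, against 0.25 in C11, 0.32 in C43 and 0.41 in C50.

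Among the largest rises in C1, Spink8, a Kazal-type serine protease inhibitor, went from 30.2 and 45.6 TPM to 182 and 182 TPM and rose by 2.26 (SE 0.20, adjusted p = 5.97e-05). Fxyd4, a regulator of the sodium pump known from the collecting duct, was at 134 and 107 TPM in the GFP-negative and 469 and 439 TPM in the GFP-positive libraries. It rose by 1.91 (SE 0.25, adjusted p = 8.24e-04). Neither gene had overlapping fractions, and their means were 4.80 and 3.77 times as high in GFP-positive cells. Their differences in C1 did not pass the test against those of the other clones (adjusted p = 0.113 and 0.999).

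Further large rises were those of the glycosyltransferase B3gnt7 (1.73), the iron-binding protein lactotransferrin Ltf (1.72, a call lost under 6 of 31 alternatives, among them those without the GFP-negative replicate 1 or either GFP-positive library of C1), the CBP/p300-interacting coactivator Cited4 (1.70) and the keratin Krt23 (1.68). Inmt, an indolethylamine methyltransferase, was the most abundant of them in C1, at 989.5 and 1075 TPM in GFP-negative and 2947 and 3244 TPM in GFP-positive cells. It rose by 1.58 (SE 0.11, adjusted p = 1.19e-05), and in both fractions C1 lay above all libraries of the other clones. Fxyd2, the gamma subunit of the sodium pump, rose by 1.53 but lay below the other clones in both fractions, at 67.8 and 84.3 TPM in GFP-positive cells against 187 to 1059 TPM (median 795). The transcription factor Cebpd (1.51) and the prostaglandin E2 receptor Ptger1 (1.50) were also among the largest rises, together with a microRNA gene. This entry, Mir130c, was listed at 0 in both GFP-negative libraries and at 41.9 and 99.0 TPM in the GFP-positive ones. It was also listed at 0 in C11 and C50 and at 76.8 and 33.9 TPM in C43 GFP-positive cells, so the fitted change of 6.03 compares libraries at 0 with libraries above it.

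Among the largest falls in C1, Spp1, which encodes osteopontin, went from 152 and 137 TPM to 3.37 and 2.81 TPM, a mean 46.7-fold lower in GFP-positive cells. It fell by 5.15 (SE 0.17, adjusted p = 2.56e-08). Fbln2, an extracellular matrix glycoprotein, went from 82.7 and 96.4 TPM to 2.59 and 1.76 TPM, a mean 41.2-fold lower, and fell by 4.84 (SE 0.39, adjusted p = 2.67e-05). In both genes the GFP-negative libraries of C1 lay above all other GFP-negative clone libraries, which had 16.1 to 60.8 TPM (median 16.7) of Spp1 and 8.84 to 29.9 TPM (median 16.2) of Fbln2.

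Ctsw, a cysteine protease best known from cytotoxic lymphocytes, was at 29.2 and 23.3 TPM in C1 GFP-negative cells and 0.21 and 0.21 TPM in GFP-positive cells. It fell by 4.48 (SE 0.30, adjusted p = 7.23e-06). The summed immune markers were 20.9 and 25.3 TPM in the GFP-negative and 15.4 and 16.6 TPM in the GFP-positive libraries of C1, nearly all of it Cd68 and Csf1r, with Cd3e at 0 in both GFP-negative libraries. Other GFP-negative clone libraries had 0.86 to 4.22 TPM (median 1.32) of Ctsw.

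The surface antigen Psca fell by 3.80 (SE 0.18, adjusted p = 4.10e-07), from 149 and 129 TPM to 7.73 and 10.4 TPM. The transporter Slc4a11 fell by 3.43 (SE 0.28, adjusted p = 3.53e-05), and the ligand Wnt10a fell by 3.40 (SE 0.26, adjusted p = 1.99e-05). These 3 genes also had lower means in GFP-positive cells of C11, C43 and C50, and the difference of C1 from those clones did not pass the test (adjusted p = 0.474, 0.891 and 0.992). The beta tropomyosin Tpm2 fell by 3.24, the interleukin-1 receptor antagonist Il1rn by 3.23, the chemokine Ccl20 by 3.20, Pbp2 by 3.19 and the matricellular protein Sparc by 3.17. Each of these 5 was above all other GFP-negative clone libraries in C1 GFP-negative cells. In GFP-positive cells both C1 libraries lay within the range of the other clones for Ccl20 and Pbp2, and 1 of 2 lay above it for Tpm2, Il1rn and Sparc. For Il1rn the C1 GFP-negative libraries had 24.5 and 21.1 TPM, against 0.83 to 6.13 TPM (median 4.42) in the other clones.

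The mitochondrial leucine transfer RNA mt-Tl1 was listed at 146 and 46.5 TPM in the GFP-negative libraries and at 0 in both GFP-positive libraries of C1. It was listed at 0 in the 12 libraries of the other clones and at 0 to 40.6 TPM in WT libraries. Leaving out mt-Tl1 and Mir130c, a setting chosen after seeing the data, gave 942 calls in place of 947.

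**Figure D2:**
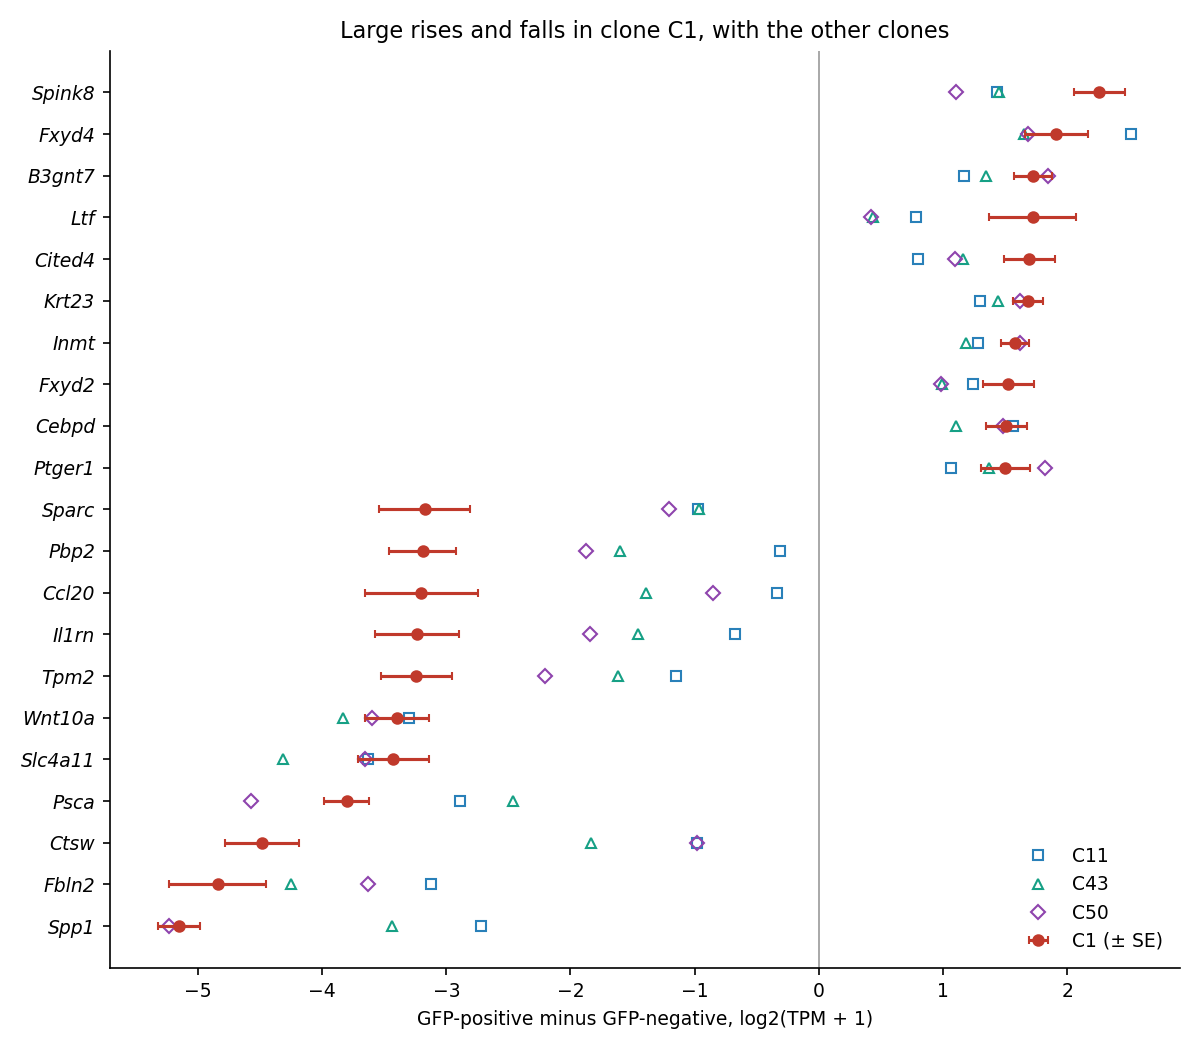
Difference between GFP-positive and GFP-negative libraries on the log2(TPM + 1) scale for 10 of the largest rises and 11 of the largest falls in C1 (filled circles, bars ± 1 SE), with C11, C43 and C50 as open symbols; mt-Tl1 and Mir130c, listed at 0 in a whole fraction, are not drawn. Spink8, Ltf and Cited4 lie to the right of the other clones and Ctsw, Sparc and Pbp2 to the left of them, and of these 6 the last 3 passed the test against the other clones.

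Of the 28 tested genes on the list of principal cell and vasopressin response genes (Aqp2 left out), 13 rose and 0 fell in C1, where 2.31% of all genes tested rose. The median difference was 0.60 against -0.06 over all tested genes. Avpr2, the V2 receptor itself, rose by 1.24 (SE 0.09, adjusted p = 8.14e-06), from 137 and 141 TPM to 324 and 336 TPM. Scnn1g, the gamma subunit of the epithelial sodium channel, rose by 1.16 (SE 0.20, adjusted p = 0.00423), from 7.42 and 11.1 TPM to 22.3 and 21.0 TPM. The fractions did not overlap for either gene. Among transcription factors on the list, Gata3 rose by 0.65, Elf3 by 0.55 and Ehf by 0.59. Tfcp2l1 (0.63, adjusted p = 0.366) and Hoxb7 (0.10, adjusted p = 0.77) did not pass the test, and Elf5 did not reach the level for testing. The aldosterone-induced kinase Sgk1 rose by 0.70, the prostaglandin E synthase Ptges by 1.06 and the sodium pump subunit Atp1b1 by 0.52. In 0 of the 28 genes did the difference in C1 pass the test against the other clones by limma, while 3 were lower at an unadjusted p under 0.05. Over all 13113 genes tested, 1202 passed at that unadjusted level, in either direction. Without the GFP-negative replicate 2 of C50, 3 were called lower and 1 higher. In 15 of 28 genes both C1 GFP-positive libraries lay below all 6 other GFP-positive libraries (53.6%, against 16.2% of all genes tested). The count of 13 was 5 to 9 when a library of C1 was left out, with 5 without the GFP-negative replicate 1 and 7 with the C1 libraries alone.

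Of 25 genes of the cyclic AMP response, 8 rose and 6 fell in C1. Of all genes tested 2.31% rose and 4.91% fell, which is the background for this list and those that follow. The 8 rises became 4 without the GFP-negative replicate 1 or the GFP-positive replicate 1 of C1 and 5 without the GFP-positive replicate 2, and the 6 falls became 3 without either replicate 2. Those that rose included Cebpd, the CBP/p300-interacting coactivator Cited1 (1.43), the cyclic AMP-responsive repressor Crem (0.95), the phosphodiesterase Pde4b (1.01) and the nuclear receptor Nr4a2 (0.99). Those that fell included the mTORC1 inhibitor Ddit4 (-2.67), the helix-loop-helix inhibitor Id1 (-1.30) and amphiregulin Areg. Areg, a ligand of the EGF receptor, was at 41.0 and 39.2 TPM in GFP-negative and 13.1 and 13.9 TPM in GFP-positive libraries and fell by 1.51 (SE 0.13, adjusted p = 5.79e-05). The corresponding change was 0.18 in C11, -0.98 in C43 and -0.65 in C50, and C1 differed from their mean by -1.02 (SE 0.15, adjusted p = 0.0112). In the GFP-negative fraction C1 lay above all other clones for Areg, which had 12.7 to 19.6 TPM (median 16.9).

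Immediate early genes, which respond within minutes to many stimuli, gave 6 rises and 2 falls among 25 tested. The 6 rises became 1 without either replicate 1 of C1, 3 without either replicate 2 and 10 without either GFP-negative library of C50, and the 2 falls became 1 without any 1 library of C1. Klf2 rose by 1.03, Btg2 by 0.88 and Fos by 0.72, whereas Fosl1 fell by 1.17. Fosl1 was at 234 and 239 TPM in C1 GFP-negative cells, above the other clones' 67.5 to 95.8 TPM (median 82.7). Of 10 tested intercalated cell genes, which mark the acid-base transporting neighbours of principal cells, 1 rose, the proton pump subunit Atp6v0a4 (1.00), and 0 fell. This call was lost without the GFP-negative replicate 1 or either GFP-positive library of C1.

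Targets of NF-kB, the transcription factor of inflammatory signalling, fell in 8 of 21 tested cases and rose in 0, with a median difference of -0.60. Tnfaip3, the deubiquitinase that restrains NF-kB, went from 19.1 and 25.3 TPM to 2.74 and 2.74 TPM and fell by 2.62 (SE 0.30, adjusted p = 3.04e-04). Relb, a subunit of the factor, fell by 1.73 (SE 0.14, adjusted p = 2.45e-05), and the inhibitor Nfkbie fell by 1.62 (SE 0.24, adjusted p = 0.00151). The chemokines Ccl20, Cxcl1 (-0.73) and Cxcl16 (-0.60), the cytokine Csf1 (-1.16) and the inhibitor Nfkbia (-0.42) were the other members that fell. At an unadjusted p under 0.05, 12 members were lower and 1 higher. Over all 13113 genes tested, 2583 differed between the C1 fractions at that unadjusted level, in either direction. This is the background for the unadjusted counts of C1 falls and rises in later lists. The 8 falls became 5 without either GFP-positive library of C1 and 12 without the GFP-negative replicate 2 of C50. After median-ratio scaling or quantile normalization, and without either GFP-negative library of C50, 1 member was called higher.

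In 8 of 21 NF-kB targets both C1 GFP-negative libraries lay above all 6 other GFP-negative libraries (38.1%, against 11.9% of all genes tested). The mean of log2(TPM + 1) over the 21 genes was 5.42 and 5.40 in the C1 GFP-negative libraries and 4.42 to 4.95 in the other GFP-negative libraries. In the GFP-positive fraction C1 had 4.69 and 4.60, and the others 4.17 to 4.56. Against the other clones, the fraction difference of C1 was called lower for 1 member (0.358% of all genes tested), Cxcl1 (-0.65, adjusted p = 0.025), and higher for 1 (0.702% of all genes tested), the iron-scavenging lipocalin Lcn2 (1.06, adjusted p = 0.0101). Without any 1 library of C1 both counts were 0, and without the GFP-negative replicates 1 and 2 of C50 5 and 6 members were called lower. Ccl20 and Tnfaip3 missed the threshold in that test (adjusted p = 0.0696 and 0.182).

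Of 18 tested matricellular and matrix genes 4 fell and 0 rose (6 and 1 at an unadjusted p under 0.05), namely Spp1, Fbln2 and the laminin-332 chains Lama3 (-2.25) and Lamb3 (-1.90). The 4 falls became 2 without the GFP-negative replicate 2 or either GFP-positive library of C1. Of 8 tested genes on the mesenchymal list 5 fell and 0 rose (6 and 0 at an unadjusted p under 0.05). Fibronectin, Fn1, went from 71.3 and 103 TPM to 12.6 and 9.75 TPM and fell by 2.85 (SE 0.35, adjusted p = 5.81e-04). The calcium-binding protein S100a4 fell by 1.46 and the smooth muscle protein transgelin, Tagln, by 1.22. Only 8 of the 26 listed genes reached the level for testing, and the fibroblast markers summed to 0.01 to 0.42 TPM in GFP-negative and 0.38 to 0.68 TPM in GFP-positive libraries. In C11, C43 and C50, 6, 9 and 7 matrix genes and 3, 4 and 5 mesenchymal genes fell. Of all genes tested 7.94%, 16.3% and 26.6% were called in these clones, in either direction. Against the other clones C1 was called higher for 1 matrix gene, and lower for 1 gene of each list. Of all genes tested 0.702% were called higher and 0.358% lower.

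Epithelial adhesion and junction genes gave 4 rises and 2 falls among 29, with a median of 0.05. The median was -0.18 and 0.28 without the GFP-negative replicates 1 and 2 of C1. The 4 rises became 0 without any 1 library of C1, and without either GFP-negative library of C50 there were 7 rises and 5 falls. The claudin Cldn8 rose by 0.81 and the keratin Krt19 by 0.44, while Epcam fell by 0.69 and Cldn7 by 0.46. Among 13 tested urothelial and squamous genes 2 rose and 2 fell, with 5 falls without either GFP-negative library of C50. Krt23 and the uroplakin Upk1a (1.24) rose, and Psca and stratifin, Sfn, fell. Sfn, a 14-3-3 protein and p53 target, was at 148 and 138 TPM in GFP-negative and 26.4 and 25.6 TPM in GFP-positive cells and fell by 2.42 (SE 0.12, adjusted p = 4.10e-07). It fell further in C1 than in the mean of the other clones, by 0.75 (SE 0.13, adjusted p = 0.0237), a call lost under 11 of 30 alternatives.

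Of 18 tested Wnt and Notch genes 5 fell and 0 rose in C1 (5 and 1 at an unadjusted p under 0.05), and 3 fell without any 1 library of C1 or C11. Wnt7a, a secreted Wnt ligand, fell by 2.39 (SE 0.36, adjusted p = 0.00168), and Lfng, the glycosyltransferase that modifies Notch, fell by 2.13 (SE 0.26, adjusted p = 5.73e-04). Of 30 genes of the EGF family and YAP targets, 5 rose and 6 fell. The rises became 1 to 3 when a library of C1 was left out, with 1 without the GFP-positive replicate 1, and the falls became 10 without either GFP-negative library of C50. Epiregulin, Ereg, fell by 1.33 and the receptor tyrosine kinase Axl by 2.87, whereas the EGF receptor, Egfr, rose by 0.63 and betacellulin, Btc, by 0.86. The YAP target Ccn2 hardly differed between the C1 fractions, at 3301 and 3181 TPM and 3171 and 3327 TPM, and its difference lay above the mean of the other clones by 1.01 (SE 0.15, adjusted p = 0.00977), a call lost without any 1 library of C1.

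Interferon response genes gave 3 rises and 2 falls among 28, with Ifit1 at 0.79 and Usp18 at -1.27. The 3 rises became 1 without the GFP-positive replicate 2 of C1, and the 2 falls became 4 without either GFP-negative library of C50. In 15 of these 28 genes the GFP-positive libraries of C1 lay below all other GFP-positive libraries (53.6%, against 16.2% of all genes tested). The mean of log2(TPM + 1) over the list was 3.69 and 3.70 in C1 and as low in C50, at 3.64 and 3.70, with 4.30 to 5.09 in C11 and C43. Glycolysis and hypoxia genes gave 1 rise and 4 falls among 29. The falls became 1 or 2 without a library of C1 and 11 and 12 without the GFP-negative replicates 1 and 2 of C50. Hexokinase 2, Hk2, fell by 1.05 and the collagen prolyl hydroxylase subunit P4ha2 by 1.77, while Ndrg1 rose by 0.77.

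Among gasdermin C genes, Gsdmc2 was at 0.54 and 0.87 TPM and 5.52 and 4.40 TPM, and rose by 1.81 (SE 0.21, adjusted p = 3.76e-04). Gsdmc4 rose by 1.08, a call lost without any 1 library of C1. Both were below all libraries of the other clones in both fractions, which had 10.5 to 63.8 TPM (median 15.9) and 51.8 to 216 TPM (median 61.1) of Gsdmc2. Gsdmc3 stayed under 1 TPM in all 4 C1 libraries and did not pass the test in C1 (difference 0.52, adjusted p = 0.159), and its difference lay -1.40 from the mean of the other clones (adjusted p = 0.0156). At these levels that value ran from -1.55 to -0.20 over 30 alternatives, and the call was lost under 7 of them, among them a pseudocount of 0.1 and the fit without C11. The 3 genes are close paralogs and reads may have been divided among them.

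**Figure D3:**
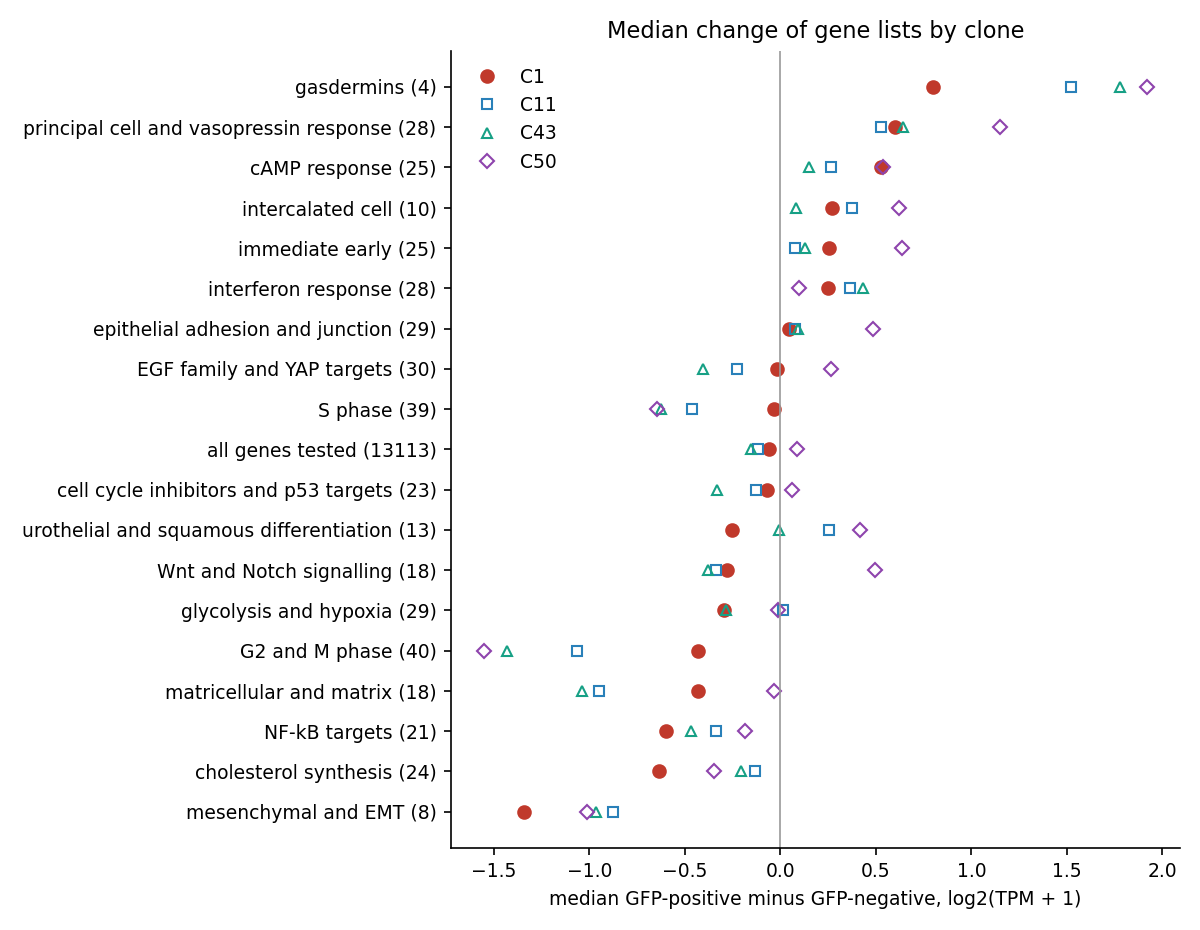
Median difference between GFP-positive and GFP-negative libraries, log2(TPM + 1), for each gene list (number of genes tested in parentheses) and for all genes tested, with C1 as filled circles and C11, C43 and C50 as open symbols. C1 lies to the right of all 3 other clones for G2 and M phase (-0.43) and S phase (-0.04). It lies to the left of them for 7 lists, namely cholesterol synthesis (-0.64), NF-kB targets (-0.60), mesenchymal, urothelial, epithelial, glycolysis and gasdermin genes. The epithelial (0.05 against 0.08 in C11) and glycolysis (-0.294 against -0.285 in C43) medians lay close to another clone. Without the GFP-negative replicate 2 of C1 they were 0.28 and -0.235. For the mesenchymal list, the median over genes of the difference from the other clones was 0.08.

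What set C1 apart was tested as its fraction difference minus the mean of the same difference in C11, C43 and C50. Of 13113 genes, 139 (1.06%) passed, 92 with C1 above (0.702%) and 47 with C1 below (0.358%). C1 lay outside the range of the 3 other clones in 135 of them, above in 91 and below in 44. The fraction difference was smaller in size in C1 than in the mean of the others for 71 of the 139 genes, larger for 28, and of opposite sign for 40. These counts depend strongly on single libraries, with 26 calls without the GFP-positive replicate 2 of C1, 27 without replicate 1, 34 and 61 without its GFP-negative replicates 1 and 2, and 433 and 679 without the GFP-negative replicates 1 and 2 of C50. At an unadjusted p under 0.05, 1202 genes passed.

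Cell cycle genes stood among those above. In the other clones GFP-positive cells had lower levels of G2 and M phase genes, of which 31 of 40 were called in C11, 40 in C43 and 37 in C50, all of them lower. Of all genes tested 7.94%, 16.3% and 26.6% were called in these clones, in either direction. In C1 6 of 40 fell and 0 rose, and the median was -0.43 against -1.07, -1.43 and -1.55. The 6 falls became 3 without the GFP-negative replicate 1 or either GFP-positive library of C1, and after median-ratio scaling, and 15 without either GFP-negative library of C50. The difference of C1 from the others was called higher for 15 of 40 genes and lower for 0, with a median of 0.91, where 0.702% of all genes tested were called higher. At an unadjusted p under 0.05 the count was 36 higher and 0 lower. Of S phase genes, 1 of 39 fell in C1, Tyms (-0.38), against 14, 25 and 26 in C11, C43 and C50, and the test of the difference called 7 higher and 0 lower, and 23 and 0 at an unadjusted p under 0.05. The 7 became 0 without the GFP-negative replicate 1 or either GFP-positive library of C1, 2 without its GFP-negative replicate 2, 3 without C11, and 21 and 18 without the GFP-negative replicates 1 and 2 of C50. The fall of Tyms was lost without any 1 library of C1. The median of S phase genes in C1 was -0.04 as deposited and 0.05 after either scaling.

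Survivin, Birc5, a subunit of the chromosomal passenger complex, went from 131 and 125 TPM to 80.7 and 80.1 TPM in C1 and fell by 0.67 (SE 0.11, adjusted p = 0.00416). The other GFP-positive libraries had 35.5 to 49.4 TPM (median 44.9), and C1 differed from the other clones by 1.24 (SE 0.13, adjusted p = 0.00199). Cyclin B2, Ccnb2, went from 79.2 and 91.6 TPM to 51.8 and 47.5 TPM, with a difference from the other clones of 1.09 (SE 0.15, adjusted p = 0.00666). C1 GFP-positive cells thus kept Birc5 and Ccnb2 at levels above every other GFP-positive library. The centromeric histone Cenpa and the ubiquitin-conjugating enzyme Ube2c differed from the other clones by 0.91 and 0.81, and the mitotic kinases Cdk1 and Aurkb by 1.13 and 1.30.

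Rrm2, the ribonucleotide reductase subunit that peaks in S phase, was at 167 and 188 TPM in GFP-negative and 173 and 158 TPM in GFP-positive libraries of C1. The fractions overlapped, and the difference of -0.10 did not pass the test in C1 (adjusted p = 0.89). In the other clones the GFP-negative libraries had 129.8 to 217 TPM (median 147) and the GFP-positive libraries 38.9 to 61.4 TPM (median 45.9), without overlap. The difference of C1 was 1.55 (SE 0.22, adjusted p = 0.00955). Spc24, a subunit of the kinetochore NDC80 complex, was at 170.3 and 161 TPM and 129 and 138 TPM in C1, against 43.3 to 62.0 TPM (median 50.2) in the other GFP-positive libraries, a difference of 1.52 (SE 0.15, adjusted p = 0.00145). Mxd3, a MAX-binding factor, followed with 1.55 (SE 0.21, adjusted p = 0.00711). The DNA clamp Pcna (0.58) and the replication factor Cdc45 (1.12) were among the 7 S phase genes called.

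The distance arose mainly in the GFP-positive fraction. In 37 of 40 G2 and M phase genes (92.5%) and 37 of 39 S phase genes (94.9%) both C1 GFP-positive libraries lay above all 6 other GFP-positive libraries, against 17.3% of all genes tested. In GFP-negative cells this held for 0 of 40 and 14 of 39 genes, against 11.9%. The mean of log2(TPM + 1) over the G2 and M phase genes was 5.43 and 5.60 in the C1 GFP-negative and 5.11 and 5.09 in the C1 GFP-positive libraries, while the other GFP-positive libraries had 4.04 to 4.37. WT cells given dDAVP had 4.94 to 5.34 and WT cells without it 5.74 to 5.78. In these bulk libraries fewer cycling cells and less RNA per cycling cell cannot be told apart. The count of 15 was 4 or 5 when any 1 library of C1 was left out, and 30 and 24 without the GFP-negative replicates 1 and 2 of C50. Without C11, C43 or C50 as a clone it was 8, 7 and 13.

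**Figure D4:**
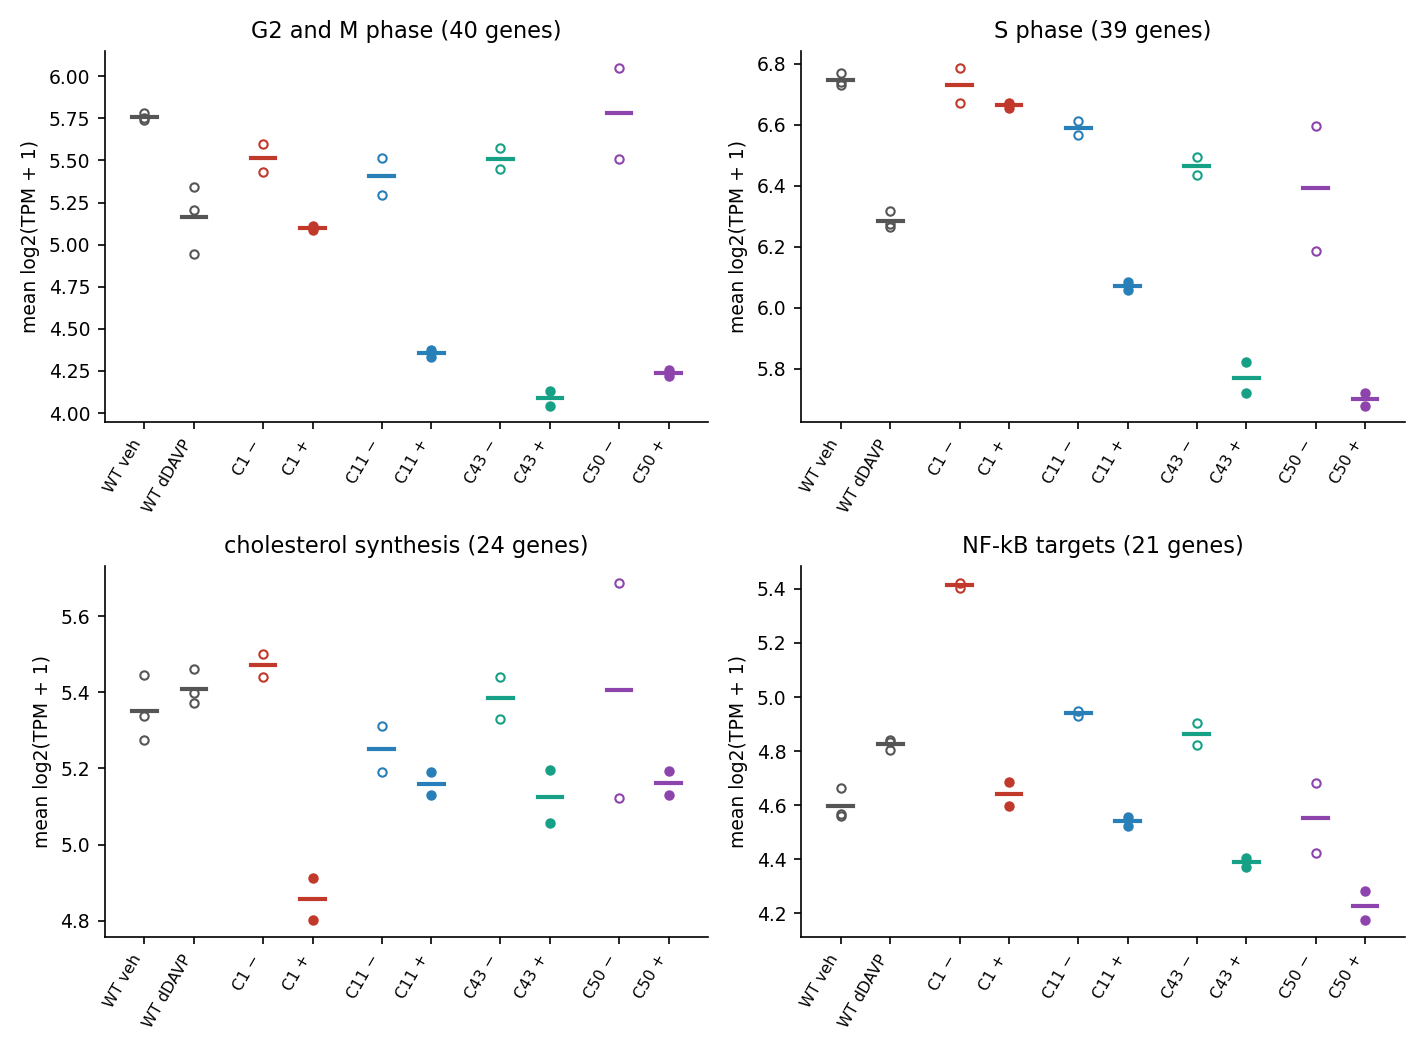
Mean of log2(TPM + 1) over the tested genes of 4 lists in every library, with open symbols for WT and GFP-negative libraries, filled symbols for GFP-positive ones and lines for group means; the axes do not start at 0. C1 GFP-positive libraries (5.11 and 5.09) lie above the other GFP-positive libraries for G2 and M phase, and below them for cholesterol synthesis (4.80 and 4.91).

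Of 23 tested cell cycle inhibitors and p53 targets, 3 rose and 2 fell in C1, with 1 rise without the GFP-negative replicate 1 or either GFP-positive library of C1. The difference from the other clones was called higher for 2 of the 23, Gadd45a and Phlda3 (0.702% of all genes tested), and lower for 0 (0.358%). It was called for 1 gene after median-ratio scaling, without C43 or without the GFP-negative replicate 1 or 2 or the GFP-positive replicate 1 of C1, and for 0 without the GFP-positive replicate 2 of C1. Gadd45a, a stress-induced p53 target, went from 142 and 143 TPM to 56.9 and 59.0 TPM, while the other GFP-positive libraries had 23.7 to 33.7 TPM (median 26.2). The difference of C1 was 1.08 (SE 0.14, adjusted p = 0.00495). Phlda3, another p53 target and an inhibitor of Akt, differed by 0.82 (SE 0.13, adjusted p = 0.0156). Sfn, a p53 target counted with the urothelial and squamous genes, went the other way (-0.75).

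Apart from the cell cycle, the genes furthest above the other clones included Timp3, Mcam and Scx. Scx, the tendon transcription factor scleraxis, fell in C1 from 140.1 and 114 TPM to 26.4 and 37.1 TPM and differed from the other clones by 1.72 (SE 0.26, adjusted p = 0.0108). The adhesion molecule Mcam was higher in C1 than in the other clones in both fractions, at 31.7 and 34.5 TPM and 14.8 and 13.1 TPM, and differed by 1.89 (SE 0.35, adjusted p = 0.0271), a call lost under 13 of 30 alternatives.

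Timp3, an inhibitor of metalloproteinases, was nearly absent from both C1 fractions, at 0.02 and 0.92 TPM and 1.08 and 0.69 TPM. The other GFP-negative libraries had 9.08 to 26.9 TPM (median 21.2) and the other GFP-positive libraries 0.09 to 1.44 TPM (median 1.04). Its difference from the other clones, 3.82 (SE 0.52, adjusted p = 0.00666), thus sets a fall in the others against levels near 0 in C1.

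Below the other clones the genes were of mixed function. The serine protease Prss23 was at 114 and 97.5 TPM in GFP-negative and 42.8 and 50.4 TPM in GFP-positive cells of C1 and fell by 1.17 (SE 0.14, adjusted p = 3.86e-04). In the other clones the change was 0.06 in C11, 0.08 in C43 and 0.24 in C50, and C1 differed by -1.29 (SE 0.16, adjusted p = 0.00377). Ttc9, a tetratricopeptide repeat protein, went from 23.1 and 21.6 TPM to 9.93 and 12.3 TPM, while the other clones had 11.7 to 18.8 TPM (median 15.0) in GFP-negative and 14.7 to 23.6 TPM (median 19.4) in GFP-positive libraries. It lay above the other clones in the GFP-negative fraction and below them in the GFP-positive fraction, with a difference of -1.28 (SE 0.23, adjusted p = 0.0259). That call was lost under 12 of 30 alternatives, among them those without any 1 library of C1, without C11 and without C43.

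Aldh2, the mitochondrial aldehyde dehydrogenase, went from 22.4 and 17.0 TPM to 3.47 and 3.14 TPM and fell by 2.25 (SE 0.36, adjusted p = 0.0028). Its difference from the other clones, -2.06 (SE 0.42, adjusted p = 0.0453), was close to the threshold and was lost under 20 of 30 alternatives. The long noncoding RNA Morrbid fell by 2.47 (SE 0.19, adjusted p = 1.69e-05) and differed by -1.59 (SE 0.21, adjusted p = 0.00666). Pigr, the polymeric immunoglobulin receptor, was at 3.63 and 3.21 TPM and 1.61 and 1.87 TPM in C1 and changed by 1.02 in C11, 0.15 in C43 and 1.08 in C50. C1 differed by -1.44 (SE 0.27, adjusted p = 0.0324), lost under 15 of 30 alternatives.

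Several of the largest falls of C1 were also larger than in the other clones. Ctsw differed by -3.22 (SE 0.34, adjusted p = 0.00199) and Pbp2 by -1.93 (SE 0.31, adjusted p = 0.0156), the latter lost under 7 of 29 alternatives, among them those without C11 and without 3 of the 4 libraries of C1. Sparc, Il1rn and Tpm2 differed by -2.12, -1.91 and -1.59, with adjusted p = 0.0418, 0.0472 and 0.0498, and these calls were lost under 17, 16 and 22 of 29 alternatives. Spp1 differed from the mean of the other clones by -1.35 (SE 0.19, adjusted p = 0.00955), but C50 fell as far as C1 did, by 5.24.

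**Figure D5:**
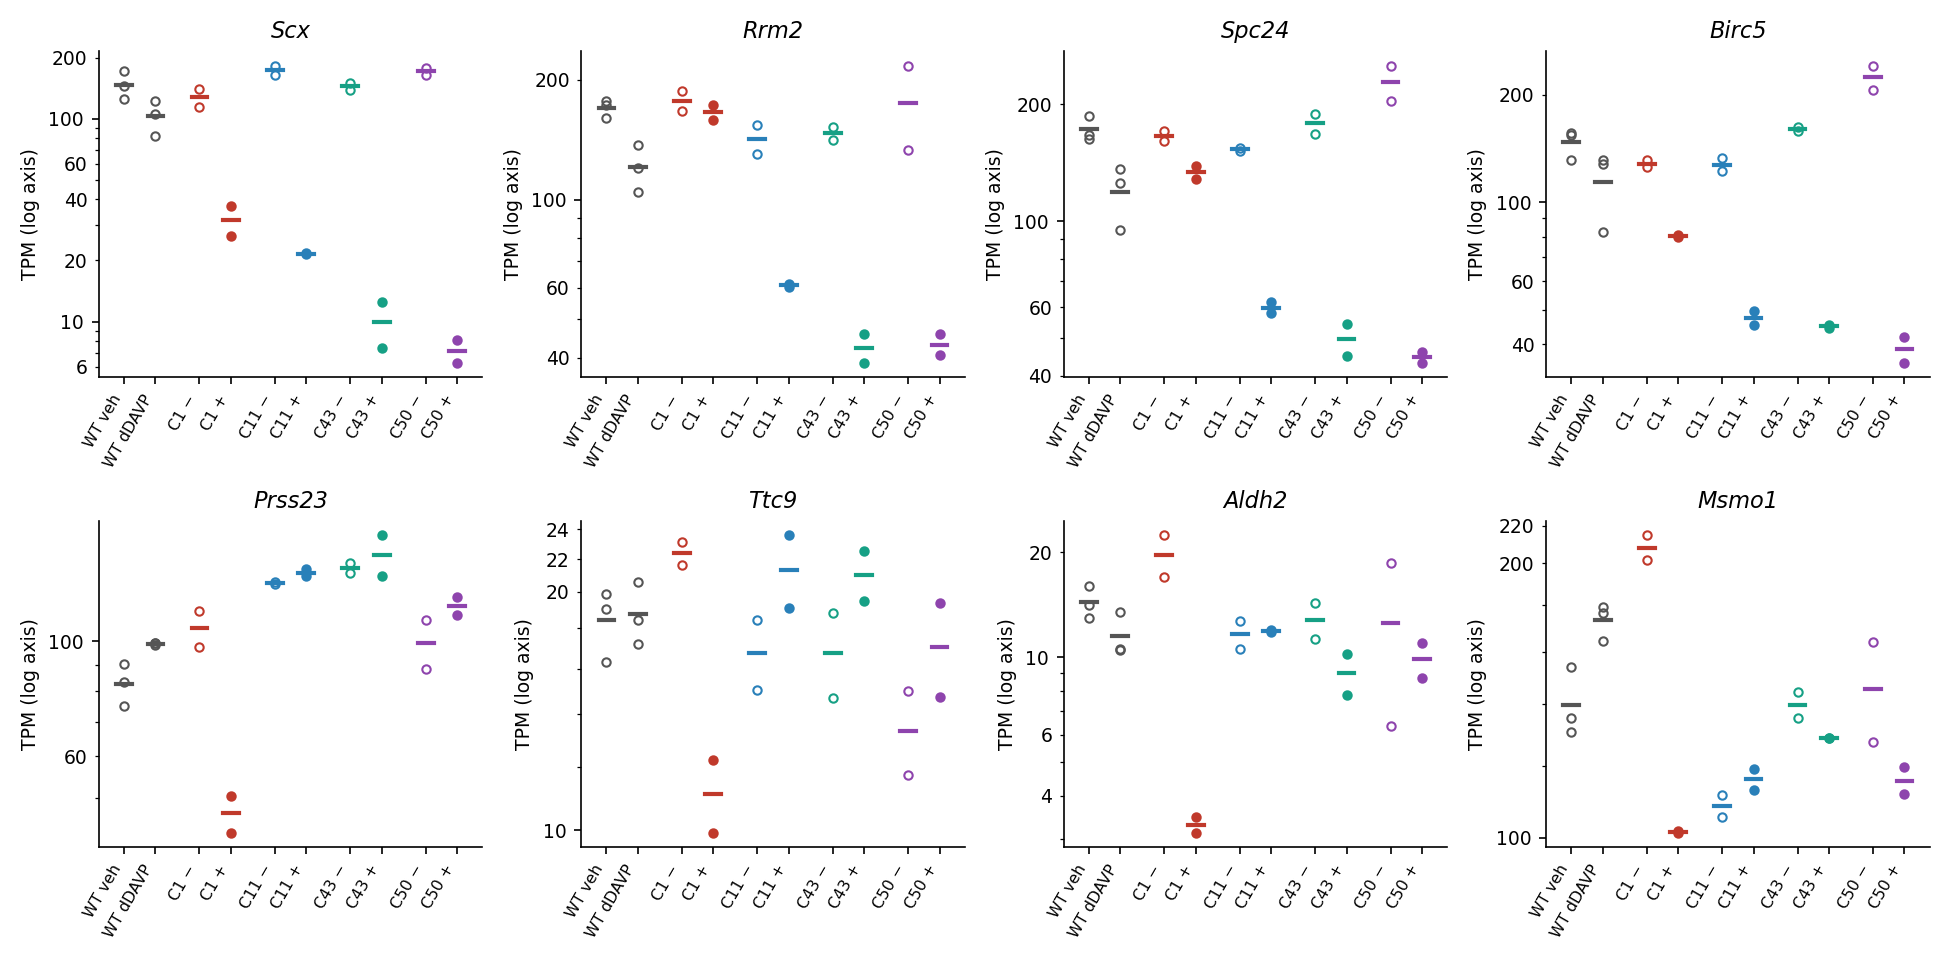
TPM on log axes for 8 genes whose fraction difference in C1 passed the test against the other clones, 1 point per library, with open symbols for WT and GFP-negative libraries, filled symbols for GFP-positive ones and lines for group means. In the top row C1 GFP-positive libraries lie above the other GFP-positive libraries (Rrm2 at 173 and 158 TPM), and in the bottom row below them (Prss23 at 42.8 and 50.4 TPM).

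Of 24 genes of cholesterol synthesis 10 fell and 0 rose in C1 (12 and 0 at an unadjusted p under 0.05), with a median of -0.64, against 0 calls in C11, 3 in C43, all lower, and 12 in C50, 10 of them lower. The share of all genes called in either direction was 7.22% in C1 and 7.94%, 16.3% and 26.6% in those 3 clones. Mvd, which makes isopentenyl diphosphate from mevalonate diphosphate, went from 32.7 and 32.1 TPM to 9.23 and 10.9 TPM and fell by 1.60 (SE 0.16, adjusted p = 1.59e-04). Idi1, the isomerase of the next step, fell by 1.07 (SE 0.18, adjusted p = 0.00387), from 13.2 and 13.9 TPM to 5.90 and 5.94 TPM. Squalene epoxidase, Sqle, fell by 1.04 (SE 0.20, adjusted p = 0.0101), and the sterol-methyl oxidase Msmo1 fell by 1.03 (SE 0.12, adjusted p = 2.92e-04), from 215 and 202 TPM to 101 and 102 TPM. Other members that fell were the kinase Mvk at -0.80, the synthases Fdps and Fdft1 at -0.95 and -0.66 and the demethylase Cyp51 at -1.01.

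Against the other clones, the difference passed for 3 of the 24 genes, all lower in C1 (0.358% of all genes tested were called lower), namely Idi1 (-1.19, adjusted p = 0.0215), Mvd (-1.10, adjusted p = 0.0192) and Msmo1 (-0.91, adjusted p = 0.00991). In 10 of 24 genes both C1 GFP-positive libraries lay below all other GFP-positive libraries (41.7%, against 16.2% of all genes tested). In GFP-negative cells C1 lay above the other clones for Msmo1 and Mvd, but not for Idi1. Msmo1 was at 215 and 202 TPM there, against 105 to 164 TPM (median 131) in the other clones. Its GFP-positive libraries had 101 and 102 TPM, against 112 to 129 TPM. Mvd was at 32.7 and 32.1 TPM in GFP-negative cells, against 21.7 to 31.2 TPM. The list mean was 5.44 and 5.50 in C1 GFP-negative and 4.80 and 4.91 in C1 GFP-positive libraries, and 5.06 to 5.19 in the other GFP-positive libraries. The 10 falls became 4 without the GFP-negative replicate 1, 5 without either GFP-positive replicate and 8 without the GFP-negative replicate 2 of C1. The 3 calls against the other clones became 0 or 1 without a library of C1, 0 without C11, and 5 and 8 without the GFP-negative replicates 1 and 2 of C50.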

How the data were processed

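RNA of 22 libraries was measured with SMART-Seq HT cDNA, Nextera XT libraries and paired-end sequencing, per the labels' protocols. STAR and RSEM are named in the submitters' processing notes. The genome build and annotation are not given in the sources used here. The authors deposited TPM per gene and library. TPM keep no depth, so no count test, interval or detection limit was used. Precision is judged from the spread between replicates alone. The 980 lines sharing 79 gene symbols were summed, which left 54514 entries.

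Genes with a mean of at least 1 TPM over the 16 clone libraries were tested with limma 3.58.1 (statmod 1.5.0, R 4.3.3) on log2(TPM + 1), which understates changes of low genes. A mean was fitted per clone and fraction, with empirical Bayes moderation, a mean-variance trend, 8 residual degrees of freedom and two-sided tests. Benjamini-Hochberg adjustment covered all 13113 genes, with calls at an adjusted p under 0.05. WT libraries entered no test. The code was tested on simulated data.

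The members and the gene lists were chosen with earlier results of these data known. Named genes were Aqp2 and GFP, the 12 largest rises and 12 largest falls in C1 with a mean of at least 5 TPM in its 4 libraries, the 8 genes furthest above and the 8 furthest below the other clones with at least 5 TPM over the 16 libraries, and up to 4 called members per list by size. Genes with provisional symbols were passed over, and some genes that the rule selects are not reported here. Further list members and markers were named after their values were seen. Promoter windows are the 250 bases before RefSeq starts of GRCm38.p6. Alternatives covered the pseudocount (0.1), filters on low values, scaling, variance moderation, detected genes as a covariate, a replicate block, a minimum change, fewer clones and single libraries left out.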

Additional observations from a re-analysis of the deposited data

Results flagged for a closer look

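The following differences between GFP fractions differed between C1 and the other clones by limma's test of that difference (adjusted p under 0.05). Values are the log2(TPM + 1) difference in C1 minus the mean difference of C11, C43 and C50.

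C1 lay above the others for Aqp2 (2.31), Timp3 (3.82), Mcam (1.89) and Scx (1.72), and for Mir130c (4.13), which was listed at 0 in both C1 GFP-negative libraries. Cell cycle genes above were Rrm2 (1.55), Mxd3 (1.55), Spc24 (1.52), Birc5 (1.24), Ccnb2 (1.09), Cenpa (0.91) and Ube2c (0.81). The p53 targets Gadd45a (1.08) and Phlda3 (0.82) were above as well, while the p53 target Sfn was below.

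The entry mt-Tl1 (-6.39) was listed at 0 in all clone libraries but the C1 GFP-negative ones. It passed the filter on low values only through these, so its value is no support for a difference between clones. C1 lay below the others for Ctsw (-3.22), Sparc (-2.12), Aldh2 (-2.06), Pbp2 (-1.93), Il1rn (-1.91), Tpm2 (-1.59), Morrbid (-1.59), Pigr (-1.44), Gsdmc3 (-1.40), Spp1 (-1.35), Prss23 (-1.29), Ttc9 (-1.28), Areg (-1.02) and Sfn (-0.75). In cholesterol synthesis Idi1 (-1.19), Mvd (-1.10) and Msmo1 (-0.91) were below. Of these genes, C1 lay inside the range of the other clones for Spp1.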

How the results depend on the processing

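The 947 calls between the C1 fractions became 609 with every gene above 0 TPM tested, 430 with the C1 libraries alone, 569 without clone C11, 1899 without C50 and 45 with a minimum log2 change of 1, and they ranged from 376 to 2093 with 1 library left out. The 139 calls of C1 against the other clones became 76, 41 without C11, 83 without C43, 225 without C50 and 3 with the minimum change, and ranged from 26 to 679. The lowest counts came without the GFP-positive replicates 1 and 2 of C1, the highest without the GFP-negative replicate 2 of C50. A group left with 1 library adds nothing to the shared spread, and the lone library is assumed to vary like the others.

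Blocking on the replicate number gave 615 calls in C1 (208 higher, 407 lower) and 28 against the other clones. Libraries of the same number deviated together only weakly, with a correlation of 0.05 between the C1 fractions, 0.02 in C11, 0.20 in C43 and 0.08 in C50. The numbers were therefore not taken as a pairing, though these values do not exclude one. Against the other clones, the block gave 4 G2 and M phase calls in place of 15, 2 S phase calls in place of 7 and 0 cholesterol synthesis calls in place of 3.

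Aqp2 kept its call and direction in C1 under all 31 alternatives (4.78 to 4.92), as did GFP (6.50 to 6.69). None of the named genes reversed. Besides those given in the report, the named genes' calls against the other clones were lost under 12 of 30 alternatives for Idi1, 10 for Cenpa, 9 for Mvd, 8 for Phlda3, 7 for Spp1, Areg and Ube2c, 6 for Msmo1, 5 for Rrm2 and Morrbid, 4 for Scx, Timp3 and Ccnb2, 3 for Mxd3, 2 for Gadd45a, and 1 for Birc5, Spc24 and Prss23, and under 2 of 29 for Ctsw and Mir130c. Among the rises and falls given for C1, the call was lost for Tyms (18 of 31), Mcam (14), Krt19 (12), Gsdmc4 (10), Fos (9), Atp6v0a4 (8), Cldn7 (7), Ltf, Cldn8, Ddit4, Ttc9 and Ube2c (6), Lamb3, Sqle and Ereg (5), Lama3 and P4ha2 (5 of 30), and Scnn1g, Klf2 and Usp18 (3), and under at most 2 for the others with alternatives computed. Genes under 5 TPM have no value under the stricter filter, and the comparison with the other clones has none with C1 alone. The depth of the libraries is unknown, so what it limits could not be assessed.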

Other observations

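In 15 of 29 glycolysis and hypoxia genes (51.7%) and 11 of 18 matricellular and matrix genes (61.1%) both C1 GFP-positive libraries lay above all 6 other GFP-positive libraries, against 17.3% of all genes tested. The mean of log2(TPM + 1) over the glycolysis and hypoxia list was 6.21 and 6.28 in C1 GFP-positive libraries and 5.95 to 6.08 in the others, and over the matrix list 4.73 and 4.57 against 3.42 to 4.17. The glycolytic enzyme Pgk1 was at 73.5 and 73.9 TPM in C1 GFP-negative and 56.0 and 54.0 TPM in C1 GFP-positive cells, against 46.9 to 60.9 and 34.5 to 40.7 TPM in the corresponding libraries of the other clones. Ndrg1, a gene induced by hypoxia, was at 433 and 506 TPM and at 791 and 810 TPM, above the other clones in both fractions. Among GFP-negative libraries C1 lay above all others for 11 of 29 glycolysis and hypoxia genes (37.9%) and 6 of 13 urothelial and squamous genes (46.2%), against 11.9% of all genes tested. The mean over the urothelial list did not set C1 apart, at 5.04 and 5.15 in C1 GFP-negative and 5.09 and 5.08 in C43 GFP-negative libraries. C1 is a single clone, so the clone and anything particular to its libraries cannot be told apart.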
